A study of Mus musculus with 6 samples.

Results

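Regulators of mRNA decay, 10 genes in all, were followed in inguinal lymph node cells of mice with experimental autoimmune encephalomyelitis (EAE), a model of multiple sclerosis. They were taken by name from a table of 23307 genes, and all 10 of 10 passed the filter for testing (on average 10 or more normalized read counts over the libraries), as did 9076 genes in all. The set holds the AU-rich element binders Zfp36, Zfp36l1 and Zfp36l2, the endonuclease gene Zc3h12a (Regnase-1), the Roquin genes Rc3h1 and Rc3h2, the deadenylase genes Cnot1 and Cnot7, and the binders Elavl1 and Khsrp. They were chosen by function with their normalized read counts in these 6 libraries, and the differences between the groups, already known, so their levels and fold changes are descriptions and carry no test.

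Both groups were SJL mice, the strain given as their genotype, in which EAE had been induced, and both were sampled on day 3. In 1 group 3 mice received perampanel, an antagonist of AMPA-type glutamate receptors in use against seizures, and the other held 3 control mice. The labels used here give no age, no dose and no vehicle for the controls. Nodes were pressed through a strainer to a cell suspension, and poly(A) RNA was sequenced. Control libraries held 2036072 to 2208589 reads on genes and perampanel libraries, all of them below that range, 1779724 to 2003726. The cells are labelled lymphocytes, and all 12 T cell markers passed the filter, against 6 of 11 B cell markers, 1 of 13 myeloid and dendritic markers, 2 of 6 NK cell markers and 1 of 9 stromal and endothelial markers. The macrophage gene Adgre1, the dendritic cell gene Clec9a and the stromal chemokine genes Ccl19 and Ccl21a had 0 reads in all 6 libraries. Summed T cell markers ran from 15365 to 16613 normalized read counts in controls and from 16798 to 17600 under perampanel, without overlap. The markers did not all move alike. Of the 12, 7 had a log2 fold change above 0 and 5 below, from -0.36 to 0.18 with a median of 0.05. By limma (Benjamini-Hochberg adjusted p under 0.05) 2 of the 12 were higher and 0 lower, beside 0.419% and 0.683% of all tested genes. At an unadjusted limma p under 0.05 there were 4 of the 12, beside 847 of all 9076 genes. The summed B cell markers (539 to 563 and 514 to 557), NK cell markers (64.3 to 83.7 and 76.6 to 86.7), myeloid and dendritic markers (30.1 to 40.4 and 31.6 to 48.1) and stromal and endothelial markers (179 to 209 and 202 to 248) overlapped between control and perampanel. In such bulk samples, fewer cells of a type and less RNA per cell cannot be told apart.

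Many short-lived mRNAs of the immune system carry AU-rich elements in their 3′ untranslated region (3′ UTR), repeats of the pentamer ATTTA in DNA letters. ZFP36 proteins bind these elements through a pair of CCCH zinc fingers and bring in the CCR4-NOT complex, which shortens the poly(A) tail, while ELAVL1 (HuR) binds similar sequences and usually stabilizes the mRNA. Regnase-1 and Roquin act on stem-loops in the 3′ UTR. In lymphocytes these proteins are known to restrain cytokine and costimulator mRNAs, and in mice the ZFP36 family is known to support quiescence of developing lymphocytes.

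The mRNAs of the regulators carry such elements themselves. Their longest annotated 3′ UTRs (GENCODE mouse transcripts, GRCm38) were searched on the transcribed strand, overlapping matches included, for ATTTA and for the nonamer TTATTTATT, which contains ATTTA and is the full binding site for the zinc finger pair. All 10 held the pentamer, against 71.2% of 8705 tested genes with an annotated 3′ UTR. The nonamer was in 6 of 10, against 8.51% of those genes, and a match says only that these letters are present. The 3′ UTRs of the 10 were also longer, with a median of 1732 against 1208 bases, and these shares were not matched for length. Whether the proteins of the 10 genes act on these mRNAs was not tested. The nonamer sites are shown as sequence only. Each is printed 5′ to 3′ with the nonamer in capitals and 10 bases on either side.
Zfp36l2: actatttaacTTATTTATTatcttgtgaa
Zfp36l1: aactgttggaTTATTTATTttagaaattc
Zfp36: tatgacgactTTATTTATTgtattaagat
Rc3h1: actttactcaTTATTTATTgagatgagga
Rc3h2: caaagacattTTATTTATTttactctgta
Elavl1: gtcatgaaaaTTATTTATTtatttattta

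The Zfp36l2 site lies at chr17:84184914-84184942 on the minus strand, and its nonamer starts 821 bases after the stop codon. That of Zfp36l1 is at chr12:80108167-80108195 (minus strand) and that of Zfp36 at chr7:28376951-28376979 (minus strand). The Roquin sites are at chr1:160970043-160970071 (Rc3h1, plus strand) and chr2:37373287-37373315 (Rc3h2, minus strand). Each of these 5 mRNAs held 1 nonamer. Elavl1 held 8 overlapping or neighbouring ones, of which the first, at chr8:4285788-4285816 (minus strand), is printed. Zc3h12a, Cnot1, Cnot7 and Khsrp held 0. Pentamers numbered 5 in Zfp36l2, 9 in Zfp36l1, 3 in Zfp36, 17 in Elavl1, and 1 each in Cnot1 and Khsrp.

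Zfp36l2 stood apart from the other 9 regulators in both its level and its difference between the groups. The gene (ENSMUSG00000045817.8, chr17:84183931-84187947, minus strand, protein-coding) encodes a ZFP36 paralogue. In the order of their replicate numbers, controls held 1854, 1963 and 2438 normalized read counts and perampanel libraries 2841, 3089 and 2807, and values of other genes follow the same order. All 3 perampanel libraries lay above all 3 controls, and control 3 was the highest control. The means were 2085 ± 310 and 2912 ± 154 (SD, n = 3 each), a log2 fold change of 0.49 ± 0.06 (SE) or 1.40-fold, resting on 14988 reads. The authors' deposited table gives 0.48 with a standard error of 0.13. The SE of 0.06 is from limma, which moderates the variance of each gene across genes. The SD of the log2 values of Zfp36l2 between replicates was 0.16. Of the 10 regulators, 1 was past the limma threshold (Benjamini-Hochberg adjusted p under 0.05), beside 1.1% of all 9076 genes tested, and 1 had perampanel above control without overlap, beside 7.18% of all genes (14.1% did not overlap in either direction). Nothing is read from these counts, since the choice of the 10 used this comparison. The summed T cell markers were also higher in every perampanel library. Per 1000 counts of these markers, Zfp36l2 was at 121, 120 and 147 in controls and at 161, 181 and 167 in perampanel libraries, again with no overlap, a log2 difference of 0.40.

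**Figure D1:**
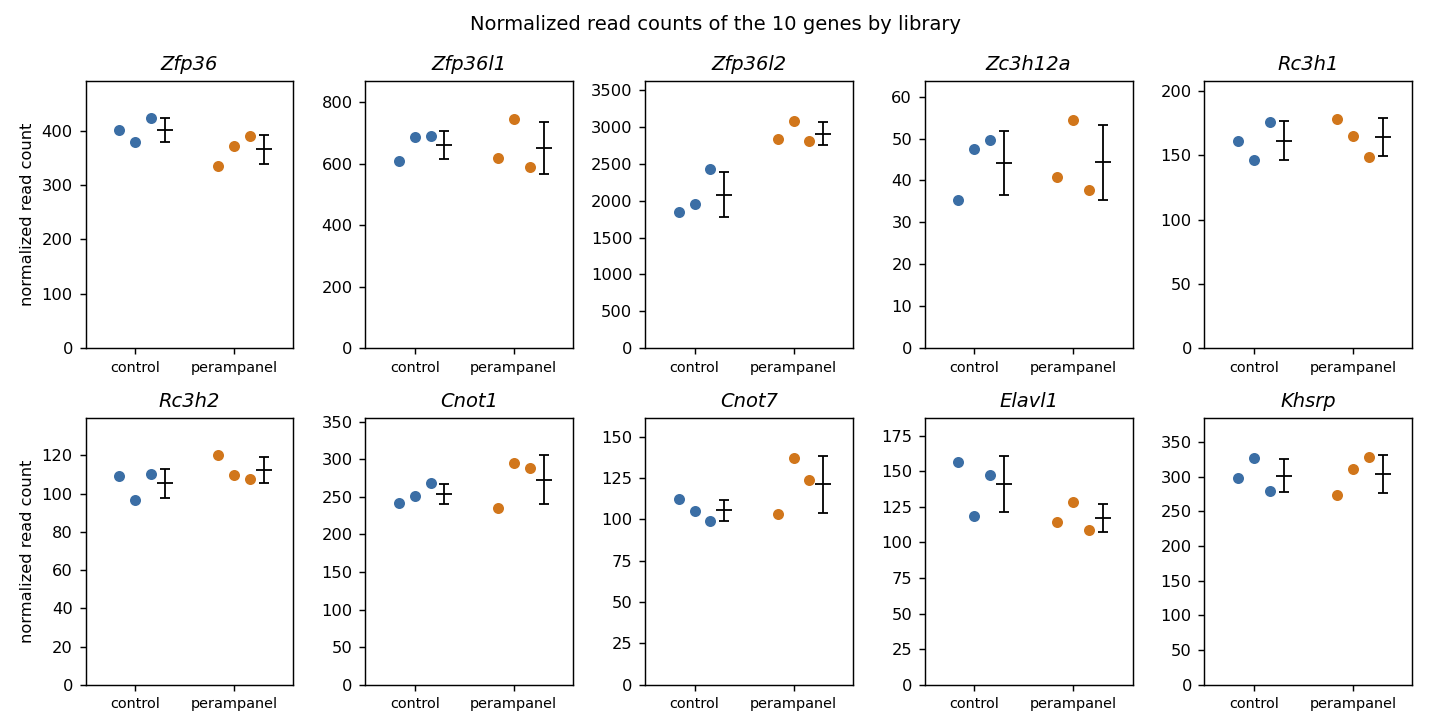
Normalized read count (vertical axes, each from 0) of the 10 regulators in the 3 control (blue) and 3 perampanel (orange) libraries, in the order of their replicate numbers, with mean and SD in black. Zfp36l2 is the panel in which the groups do not overlap, with controls from 1854 to 2438 and perampanel from 2807 to 3089.

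Zfp36, the founding member of the family, known as tristetraprolin (ENSMUSG00000044786.6, chr7:28376784-28380253, minus strand), showed no such separation. It was at 401, 378 and 423 normalized read counts in controls and 336, 371 and 389 under perampanel. Perampanel 1 and 2 lay below all controls and perampanel 3 lay among them. The log2 fold change was -0.13 ± 0.08 (SE). Zfp36 is also an immediate early gene, induced within minutes by stimulation or tissue handling. Other immediate early genes gave 0 calls among 12 tested by limma. Of them 2 had an unadjusted p under 0.05 (847 of all 9076 genes did), Egr1 at 0.43 and Nr4a1 at 0.47 on the log2 scale. The summed level of the immediate early genes overlapped between groups (2398 to 2724 and 2475 to 3014 normalized read counts).

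Zfp36l1 (ENSMUSG00000021127.7, chr12:80107754-80113013, minus strand), a further paralogue, was at 609, 687 and 690 normalized read counts in controls and 618, 747 and 588 under perampanel. The groups overlapped, with the highest and the lowest library both under perampanel. Its log2 fold change was -0.03 ± 0.08 (SE), and it was above 0 in 3 of 15 alternative analyses.

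Scaled by exon length, Zfp36l2 was the most abundant of the paralogues in all 6 libraries. Its level was 591 ± 87.9 normalized read counts per kb of exon in controls and 825 ± 43.6 under perampanel (SD, n = 3 each). Zfp36l1 was at 221 ± 15.3 and 218 ± 28.3 per kb, and Zfp36 at 115 ± 6.40 and 105 ± 7.87. Summed over the family, levels per kb came to 845, 895 and 1043 in controls and to 1108, 1232 and 1104 in perampanel libraries, so that every perampanel library lay above every control. Per kb, Zfp36l2 exceeded Zfp36 by a ratio of 4.55, 5.10 and 5.67 in controls and of 8.32, 8.18 and 7.09 under perampanel. Relative to Zfp36l1 the ratio was 2.66 ± 0.30 and 3.81 ± 0.28. Zfp36l2 made up 591 of a mean family sum of 927 per kb in controls and 825 of 1148 under perampanel. The sum and the ratios therefore largely restate its own difference, known when it was chosen, and carry no test.

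**Figure D2:**
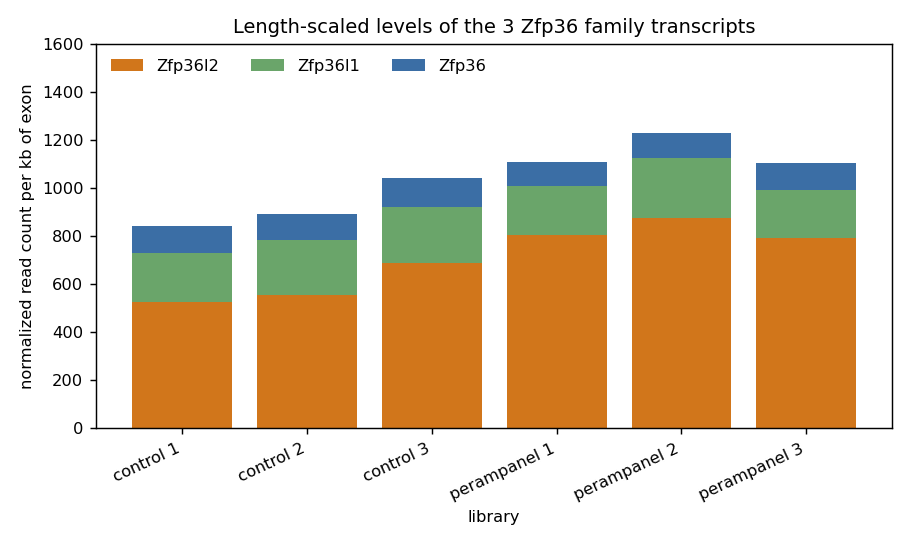
Stacked bars of the length-scaled level (normalized read count per kb of exon) of Zfp36l2, Zfp36l1 and Zfp36 in each of the 6 libraries. The lowest segment, Zfp36l2, runs from 525 to 691 in controls and from 795 to 875 under perampanel, and the upper segments differ less.

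The other regulators were less abundant per kb of exon. In controls Khsrp followed the ZFP36 family with 69.9 ± 5.47 normalized read counts per kb. Cnot7 was at 18.1 ± 1.12, Zc3h12a at 15.3 ± 2.65, Cnot1 at 14.8 ± 0.80, Rc3h1 at 14.3 ± 1.34 and Elavl1 at 13.6 ± 1.90 (SD, n = 3 each). Within this run, the steps from Zc3h12a to Cnot1, to Rc3h1 and to Elavl1 were each smaller than the spread over libraries. Rc3h2 was lowest with 5.37 ± 0.38. The length is that of all annotated exons, 17169 bases for Cnot1 and 19624 for Rc3h2, so genes with many annotated isoforms are set lower.

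Zc3h12a, the RNase gene whose product cleaves stem-loops in mRNAs such as that of interleukin-6 (ENSMUSG00000042677.7, chr4:125118423-125127840, minus strand), had the fewest reads of the 10, 269 in all. It was at 35.4, 47.5 and 49.6 normalized read counts in controls and 40.8, 54.5 and 37.8 under perampanel. The groups overlapped widely, with a log2 fold change of 0.00 ± 0.20 (SE).

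The Roquin genes encode RING-type ubiquitin ligases that bind stem-loops and recruit CCR4-NOT. Rc3h1 (chr1:160906418-160974978, plus strand) was at 161, 146 and 176 normalized read counts in controls and 178, 165 and 149 under perampanel (log2 0.03 ± 0.11, SE). Rc3h2 (chr2:37370069-37422903, minus strand) was at 109, 96.8 and 110 in controls and 120, 110 and 108 under perampanel (log2 0.10 ± 0.13). Perampanel 1 was the highest library for both, and the groups overlapped for both.

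The deadenylase genes were somewhat higher in the means, with overlap. Cnot1 (chr8:95719451-95807464, minus strand) encodes the scaffold on which CCR4-NOT assembles and Cnot7 (chr8:40492540-40515847, minus strand) a catalytic subunit. Cnot1 was at 241, 251 and 268 normalized read counts in controls and 236, 294 and 288 under perampanel (log2 0.10 ± 0.10, SE). Cnot7 was at 112, 105 and 99.2 in controls and 103, 137 and 124 under perampanel (log2 0.19 ± 0.13). In both genes perampanel 2 and 3 lay above all controls and perampanel 1 did not.

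Elavl1, which encodes the stabilizing binder HuR (chr8:4285382-4325413, minus strand), had the largest negative fold change of the 10. It was at 157, 119 and 147 normalized read counts in controls and 114, 128 and 109 under perampanel (log2 -0.26 ± 0.13, SE). Control 2 lay among the perampanel libraries, so the groups overlapped. Khsrp, whose product KSRP promotes decay of AU-rich mRNAs (chr17:57021051-57031522, minus strand), was at 298, 327 and 280 in controls and 274, 311 and 329 under perampanel (log2 0.01 ± 0.09). Its groups covered nearly the same range.

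Since reads could be counted without regard to strand, overlapping genes matter for these values. The antisense gene Gm44710, whose exons overlap those of Zfp36, was at 0 in all 6 libraries, and Gm26669, opposite Zfp36l1, was at 2.04 to 7.35 normalized read counts. Zdhhc2, opposite Cnot7, was at 2.29 to 19.7, Ccl25, opposite Elavl1, at 8.16 to 17.4 and Gm17949, opposite Khsrp, at 0 to 2.29. Vps37a, also opposite Cnot7 but without overlap of exons, was at 84.0 to 106. Antisense transcripts opposite Zfp36l2 (AC132455.1) and Cnot1 (4930513N10Rik) were not analysed here. How reads shared by overlapping genes were counted was not given, so low values of these genes do not measure the shared reads.

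Genes whose profile over the 6 libraries was most like that of Zfp36l2 were found by the root mean square difference of centred log2 values among 5523 genes averaging 50 or more normalized read counts. Rnf125, a ubiquitin ligase gene, was nearest with 0.054, followed by Tsc22d3 with 0.064 and Cfap97 with 0.065. Their log2 fold changes were 0.52 (Rnf125), 0.44 (Tsc22d3) and 0.40 (Cfap97). Tsc22d3 encodes GILZ, a leucine zipper protein known for its induction by glucocorticoids. It was at 578, 600 and 668 normalized read counts in controls and 823, 893 and 791 under perampanel, higher in every perampanel library and highest among controls in control 3, as was Zfp36l2. The likeness was measured over the same libraries in which Zfp36l2 was chosen, and it carries no test.

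Beyond these 10, the wider mRNA decay machinery gave 1 call. Btg1, an antiproliferative gene whose product binds the CCR4-NOT deadenylase (chr10:96617006-96622809), rose in the nodes of perampanel-treated mice. It was at 984, 1020 and 1115 normalized read counts in controls and 1210, 1317 and 1216 under perampanel, every perampanel library above every control. The means were 1040 ± 67.6 and 1247 ± 60.4 (SD, n = 3 each), a log2 fold change of 0.26 ± 0.06 (SE, limma adjusted p = 0.0158). Summed T cell markers moved the same way, and per 1000 counts of these markers Btg1 was at 64.1, 62.5 and 67.1 in controls and 68.7, 77.3 and 72.4 under perampanel, a log2 difference of 0.17. The call was lost without control 1 (log2 0.22, adjusted p = 0.134), control 2 (0.25, 0.0984) or perampanel 2 (0.22, 0.108). DESeq2 and edgeR on recovered reads called it too (adjusted p = 0.0173 and 0.0125).

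Over 6 lists of decay genes, 102 of 110 genes were tested, 1 rose and 0 fell by limma, beside 0.419% of all tested genes higher and 0.683% lower. Their log2 fold changes had a median of 0.01 and ran from -0.35 to 0.40, beside a median of 0.00 over all 9076 genes. At an unadjusted limma p under 0.05 there were 4 of the 102 genes, Btg1 included, beside 847 of all 9076. DESeq2 and edgeR each called 1.

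In the deadenylation list 1 of 21 tested genes rose, 0 fell and 20 did not pass, with a median log2 fold change of 0.04. Pabpc1, the poly(A)-binding protein gene and the most abundant of the list, was at 4682 ± 87.9 and 4690 ± 131 normalized read counts (SD, n = 3 each), with a 95% interval of the log2 fold change from -0.07 to 0.07. Paip2, an inhibitor of that protein, had a log2 fold change of 0.03 (-0.13 to 0.20). Btg2, the paralogue of Btg1 (named after its values were seen), was at 0.22 with an interval of -0.02 to 0.45 and did not pass.

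Among other RNA binders and modulators 0 of 21 tested genes passed, none of them at an unadjusted p under 0.05 (median log2 fold change -0.01). The poly(C) binder Pcbp2 was at 0.02 (95% interval -0.09 to 0.14), Hnrnpd, which encodes the AU-rich element binder AUF1, at -0.01 (-0.14 to 0.12) and the GU-rich element binder Celf2 at -0.01 (-0.14 to 0.11) on the log2 scale.

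Of 23 tested genes of decapping and decay from the 5′ end 0 passed (median -0.02). The helicase gene Ddx6 was at 570 ± 17.3 and 623 ± 17.3 normalized read counts, above all controls in every perampanel library (log2 0.13, 95% interval -0.01 to 0.26). Xrn2, a nuclear exonuclease gene, was at 0.10 and Pnrc1, a cofactor of decapping, at 0.08. Lsm7 (-0.32) and Lsm2 (-0.29), subunits of the Lsm ring, had an unadjusted p under 0.05, did not pass after adjustment (adjusted p = 0.267 and 0.490 by limma), and were named after their values were seen.

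Exosome genes gave 0 calls among 16 tested (median -0.02). The nuclease gene Exosc10 was at a log2 fold change of 0.17 (95% interval -0.06 to 0.41), the ring subunit gene Exosc8 at -0.01 and the ribosome rescue factor gene Hbs1l at -0.28 (-0.53 to -0.02, limma adjusted p = 0.477). Hbs1l was the 1 gene of this list at an unadjusted p under 0.05.

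Nonsense-mediated decay had 0 of 11 tested genes past the test and 0 at an unadjusted p under 0.05. Its median log2 fold change, 0.14, was the highest of the 6 lists, and 9 of 11 genes were above 0, beside 4561 of 9076 over all tested genes. The kinase gene Smg1 was at 520 ± 12.7 and 575 ± 36.4 normalized read counts (log2 0.14, 95% interval -0.003 to 0.29) and Pnrc2 at a log2 fold change of 0.04. For microRNA silencing 0 of 10 tested genes passed, with 0 at an unadjusted p under 0.05 (median 0.03), and 9 of 10 were above 0. The scaffold genes Tnrc6a and Tnrc6b were at log2 fold changes of 0.01 and 0.13, and the Argonaute gene Ago2 at 0.01 (-0.19 to 0.21).

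**Figure D3:**
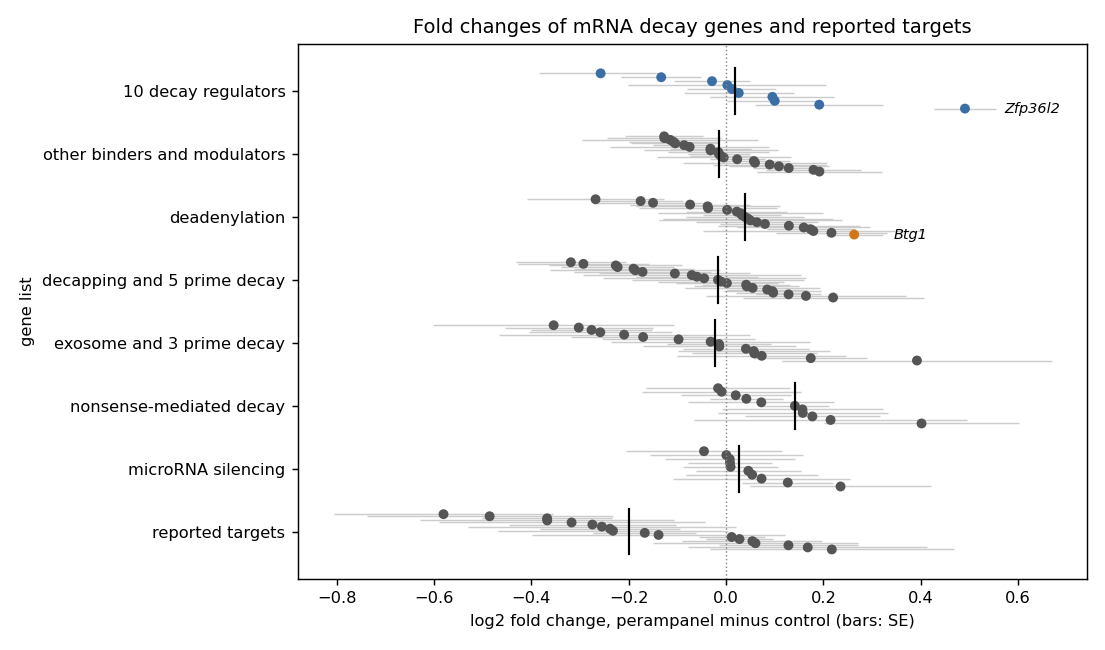
Log2 fold change (perampanel minus control, horizontal axis) of each tested gene in the 10 decay regulators (blue, untested), 6 lists of mRNA decay genes and the reported targets, with SE as grey bars and list medians as black lines. Btg1 (orange) is the 1 listed gene that passed the limma test, at 0.26, and Zfp36l2 lies at 0.49.

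Targets that published work ties to ZFP36 proteins, Regnase-1, Roquin or HuR showed 0 calls among 18 tested of 33 listed, by limma, DESeq2 and edgeR alike. By limma 2 of them had an unadjusted p under 0.05, beside 847 of all 9076 genes. The median log2 fold change of the targets was -0.20, with 7 above 0 and 11 below, beside 0.00 over all genes. Klf2, the quiescence factor, was at 614 ± 7.29 and 627 ± 45.7 normalized read counts (95% interval of the log2 fold change -0.11 to 0.17). The cyclin gene Ccnd3 was at a log2 fold change of 0.01 (-0.13 to 0.15) and the receptor gene Notch1 at -0.17 (-0.38 to 0.05). The 2 genes of smallest p were named after their values were seen. Icos, a costimulatory receptor gene and a main Roquin target, was at 144, 74.0 and 185 normalized read counts in controls and 85.7, 116 and 58.4 under perampanel. Its groups overlapped, the controls alone spread more than the distance between the means, and the log2 fold change of -0.58 did not pass (limma adjusted p = 0.344). It passed without control 2 (-0.96, adjusted p = 0.0273) and when genes with low values were kept. Myc was at 144, 136 and 163 in controls and 92.8, 120 and 133 under perampanel, each perampanel library below each control (log2 -0.37, limma adjusted p = 0.279).

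The classical cytokine targets were few in reads. Tnf, whose 3′ UTR held 5 overlapping nonamers, was at 32.5, 25.6 and 22.0 normalized read counts in controls and 35.7, 29.2 and 25.2 under perampanel (log2 0.17, 95% interval -0.34 to 0.67). Il2, with 1 nonamer, was at 23.6, 23.7 and 21.1 and at 23.5, 28.2 and 28.6 (log2 0.22, -0.30 to 0.73). Csf2, Ifng, Il6, Il10, Il12b, Cxcl1 and Ptgs2 had 0 reads in all 6 libraries. That allows up to 3 reads in a library, or 1.36 to 1.69 CPM, for counting error only. The Tnf and Il2 sites show the range from a clustered to an isolated element, again with the nonamer in capitals.
Tnf: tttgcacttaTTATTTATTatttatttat
Il2: ttatctgaaaTTATTTATTatattgaatt

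These sites lie at chr17:35199689-35199717 (Tnf, minus strand) and chr3:37120898-37120926 (Il2, minus strand). In Tnf the next nonamer begins within the letters printed.

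Calls among genes with the nonamer in their 3′ UTR were at the background share, so nothing particular to them is read from the counts. Of 741 such genes 3 were higher and 5 lower by limma (1.08%), and of 7964 genes without it 34 were higher and 56 lower (1.13%). The 3 higher nonamer genes include Zfp36l2, which was chosen with this comparison known. Of the 169 genes with at least 2 nonamers 0 were higher and 3 lower (1.78%, beside 0.683% lower of all tested genes). These calls are too few to read a direction from. The median log2 fold change of the 169 was -0.001, and 49.1% were above 0. For genes with at least 1 nonamer and genes without it, medians were 0.02 and -0.002, and 54.1% and 49.6% of genes were above 0. The 3′ UTRs with a nonamer were longer, with a median of 2477 against 1122 bases. The genes were therefore also split into 3 equal classes by 3′ UTR length. Among the longest, the shares above 0 were 56.2% of 459 genes with and 54.8% of 2443 without a nonamer, and in the middle class 49.8% and 49.7%. Among the shortest they were 53.5% of 71 and 45.0% of 2831.

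The 8 nonamer genes that were called include Zfp36l2 itself. Besides it, Tnfaip3, which encodes the NF-kappaB inhibitor A20, and Satb1, a chromatin organizer of T cells, rose by 0.62 ± 0.13 and 0.21 ± 0.05 on the log2 scale (SE, limma). Satb1 was at 1173, 1148 and 1232 normalized read counts in controls and 1340, 1338 and 1429 under perampanel, all above the controls. Those that fell were Ybx3 (-1.55), Birc5 (-1.98), Hells (-0.95), Hmgb2 (-0.66) and Ran (-0.33), which encode a cold shock RNA binder, a mitotic survivin, a chromatin remodeller, a chromatin protein of dividing cells and a nuclear transport GTPase. Satb1 lost its call when any of the 6 libraries was left out (0.18 to 0.24), with a pseudocount of 0.1 (adjusted p = 0.0505) and with the replicate number as a block (adjusted p = 0.0650), and Tnfaip3 without control 1 (0.55), control 2 (0.59) or perampanel 2 (0.52). Ran lost it without control 1 (-0.20), perampanel 1 (-0.31) or perampanel 2 (-0.31). Birc5 was at 80.7, 44.8 and 62.5 normalized read counts in controls and 23.5, 27.2 and 4.58 under perampanel, and without perampanel 3 its log2 fold change was -1.24. DESeq2 did not call Hmgb2 (-0.64) and gave Birc5 and Hells no adjusted p. All 8 carry the nonamer by the choice of the class, and whether it bears on the direction was not tested. The sites of 1 gene that rose and 1 that fell are printed.
Satb1: ttagtccttgTTATTTATTtgtagctcct
Ybx3: ttttatgcccTTATTTATTcctaggatga

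They lie at chr17:51739200-51739228 (Satb1, minus strand) and chr6:131364945-131364973 (Ybx3, minus strand).

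**Figure D4:**
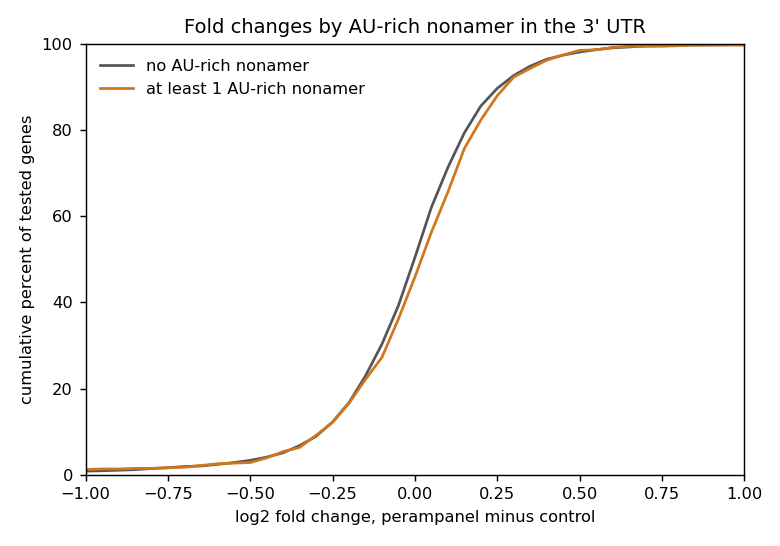
Cumulative percent of tested genes (vertical axis) by log2 fold change, perampanel minus control (horizontal axis), for 741 genes with at least 1 AU-rich nonamer in the 3′ UTR (orange) and 7964 genes with none (grey). The orange curve lies below the grey one around the centre, at 65.6% against 71.3% at a log2 fold change of 0.1, and they meet near 0.3 (92.3% and 92.7%).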

How the data were processed

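The series holds 1 table of genes by 6 libraries. Its sample columns hold size-factor-normalized signal, deposited by the authors as read counts divided by 1 factor per library. Further columns deposited by the authors are their log2 fold change and its error, p-values raw and adjusted, and a test score. The submitters' processing notes name DESeq2, DESeq and GRCm38. The aligner and the read counter were not given in the sources used here. The library kit named in the labels' protocols does not mark strand.

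Every non-zero value was a whole multiple of its library's smallest value (100% within 1e-06), which gave back whole reads. Library pairs of 1 group differed by a chi-square of 1.56 to 1.80 per degree of freedom, so none was a duplicate. Genes with a mean of at least 10 (9076) were fitted on log2(value + 1) by limma-trend, version 3.58.1 under R 4.3.3, with all 6 libraries, treatment as the only factor, Benjamini-Hochberg adjusted p under 0.05. Fold changes are on that scale, and their SE and intervals use the moderated variance of limma. Alternatives were DESeq2 1.42.0 and edgeR 4.0.16 on recovered reads (edgeR called 107 genes), pseudocounts of 0.1 and 10, other filters, quantile and TMM scaling, a replicate block and each library left out. The fits were tested on simulated data.

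The members and lists were chosen with earlier results of these data known. Named were all 10 regulators, the called genes and the 3 most abundant of each list, and the 3 genes most like the regulator with the largest fold change; further names were chosen after their values were seen. An item that this rule takes is not reported here. The targets were listed from general knowledge of published work. GENCODE mouse release 21 (GRCm38) gave the gene models. There 22085 names matched once, and a 3′ UTR was found for 17914. Levels relative to T cell markers were added after seeing the data.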

Additional observations from a re-analysis of the deposited data

How the results depend on the processing

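The log2 fold change of each of the 10 regulators moved by less than the SD of its log2 values between replicates (0.09 to 0.27) in the alternatives that tested it. The largest move of Zfp36l2 was 0.12 against an SD of 0.16. For many settings this could not come out otherwise, and no robustness is read from it. Leaving out 1 of 3 libraries cannot move a group mean by that SD. Other filters and the replicate block leave the fold change as it was. Zfp36l2 ran from 0.41 to 0.61 (0.40 relative to T cell markers, added after seeing the data), Elavl1 from -0.37 to -0.18, Zfp36 from -0.18 to -0.07, Cnot1, Cnot7 and Rc3h2 stayed above 0, and Khsrp, Rc3h1, Zc3h12a and Zfp36l1 took both signs. Without a filter on low values 179 genes of the table were called and 1 reported target, Icos, as lower. DESeq2 called 50 genes, 5 of them with a nonamer. At least 2 nonamers left 3 called genes, and the heptamer TATTTAT in place of the nonamer gave 27, since the classes hold 169 and 2687 tested genes. With each library left out in turn, called genes numbered 44 to 113 in the table, 0 to 1 among the other decay genes, 0 to 1 among the targets and 5 to 8 with a nonamer. The lowest of these table counts were without control 1 (44) and control 2 (55). Leaving out control 1 or perampanel 2 gave 5 nonamer genes each. Same-numbered libraries correlated by only 0.02 to 0.03 in their deviations from group means, though each of the 6 libraries correlated best with its own number. With the replicate number as a block 103 genes, 1 decay gene, 0 targets and 7 nonamer genes were called. Perampanel libraries held fewer reads, and for Tnf and Il2 the intervals allow changes of the size seen in Zfp36l2.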
